A study of Mus musculus with 4 samples.

Results

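Primary granule and neutrophil serine protease genes were examined in AML c-Kit+ cells with and without Suv39h1 overexpression (SUV-OE). The group was set by name as 7 genes: Mpo, Elane, Prtn3, Ctsg, Ctsc, Lyz2 and Srgn. Each had 1 row among the 23552 genes of the deposited table, and all 7 had a mean FPKM (fragments scaled to exon length and library depth) of at least 0.5, the minimum for testing. The cells came from the MLL-AF9 mouse model of acute myeloid leukemia in C57BL/6 mice, in which the MLL-AF9 fusion drives the disease. The control carried an eGFP vector (control-eGFP overexpression) and SUV-OE carried Suv39h1 with eGFP (Suv39h1-eGFP overexpression), both introduced by lentivirus into established MLL-AF9 leukemia cells before transplantation. When recipients became moribund, their bone marrow was enriched for cells with the surface receptor c-Kit, and total RNA was sequenced. Each group had 2 libraries, control replicates 3 and 4 and SUV-OE replicates 2 and 3, all of RNA-seq batch 2. The labels give no age of the mice, and no time other than the moribund stage. Both groups share the fusion, the virus and eGFP, so the comparison is of added Suv39h1 within leukemia and holds no normal neutrophil. Nothing in the labels says whether the 2 libraries of a group came from separate mice, so p-values measure the spread between these libraries, which may be technical.

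Neutrophils store their weapons in granules that are made in sequence. Primary (azurophil) granules are filled at the promyelocyte stage with myeloperoxidase and a family of serine proteases, and the genes for these proteins are switched off again as the cell matures. Secondary and tertiary granules follow, and their genes come on as the primary granule genes go off. The proteases are made as inactive precursors, are cut to the active form by the dipeptidyl peptidase encoded by Ctsc, and are packed onto the sulfated proteoglycan encoded by Srgn. Leukemia cells that carry an MLL fusion resemble granulocyte and macrophage progenitors and commonly express primary granule genes. Suv39h1 encodes a methyltransferase that places the repressive mark H3K9me3 on histone H3.

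The overexpressed gene was checked before any other. Suv39h1 stood at 12.4 FPKM in both control libraries and at 75.3 and 81.2 FPKM in the SUV-OE libraries (log2 fold change 2.56, SE 0.11, adjusted p = 0.00866). Kit, which encodes the receptor used for the enrichment, was present in all 4 libraries at 19.2 to 28.6 FPKM, and Ptprc, Spi1, Hoxa9, Meis1, Cd34 and Fcgr3 were detected in all 4 as well, each by at least 2391 reads. Reads recovered from the steps of the FPKM values, summed over genes, came to 20082965 to 23557717 per library. These sums include rounded values of genes that did not come out as whole reads, and they are not library depths. Depth by the FPKM steps was 16873770 to 19453058 reads, and 3 reads on 1 kb of exons correspond to 0.154 to 0.178 FPKM. The test over all genes called 168 of 13736 tested genes as DEGs (adjusted p under 0.05 and absolute log2 fold change of at least 1), 112 higher and 56 lower in SUV-OE. When any 1 of the 4 libraries was left out, 1 group held a single library and no gene passed, Suv39h1 included, so those fits do not tell one DEG from another.

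The 7 genes are placed on 4 chromosomes of mm10. Mpo lies at chr11:87793581-87804413 on the plus strand and Ctsc at chr7:88278085-88310888 on the plus strand. Prtn3 (chr10:79874476-79883174) and Elane (chr10:79886247-79888215) lie side by side on the plus strand of chromosome 10, 3073 bases apart. The same chromosome carries Srgn (chr10:62493833-62527451) and Lyz2 (chr10:117277331-117282321), both on the minus strand. Ctsg lies at chr14:56099881-56102574 on the minus strand.

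What the genes share in their promoters was read from the RefSeq sequence of GRCm38.p6, the assembly also called mm10. The 250 bases before the start site are shown for the 3 proteases, their activator and lysozyme, because these 5 span the range of behavior described below, with the proteases level or lower in SUV-OE and the other genes higher. They are given 5′ to 3′ on the strand of the gene, at chr10:79886062-79886311 for Elane, chr10:79879417-79879666 for Prtn3, chr14:56102575-56102824 (minus strand) for Ctsg, chr7:88277835-88278084 for Ctsc and chr10:117282273-117282522 (minus strand) for Lyz2. Capitals mark AGGAAGT, a form of the site bound by ETS factors such as PU.1, or its reverse complement ACTTCCT.
Elane: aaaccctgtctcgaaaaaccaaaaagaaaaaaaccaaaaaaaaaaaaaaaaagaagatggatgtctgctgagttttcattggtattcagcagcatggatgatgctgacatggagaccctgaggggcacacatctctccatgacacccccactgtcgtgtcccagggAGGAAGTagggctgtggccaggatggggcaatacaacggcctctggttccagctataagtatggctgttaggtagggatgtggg
Prtn3: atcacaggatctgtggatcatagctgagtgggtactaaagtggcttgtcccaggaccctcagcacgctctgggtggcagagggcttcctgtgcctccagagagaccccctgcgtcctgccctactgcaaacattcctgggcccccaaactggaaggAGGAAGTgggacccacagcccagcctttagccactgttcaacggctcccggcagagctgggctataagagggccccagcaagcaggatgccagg
Ctsg: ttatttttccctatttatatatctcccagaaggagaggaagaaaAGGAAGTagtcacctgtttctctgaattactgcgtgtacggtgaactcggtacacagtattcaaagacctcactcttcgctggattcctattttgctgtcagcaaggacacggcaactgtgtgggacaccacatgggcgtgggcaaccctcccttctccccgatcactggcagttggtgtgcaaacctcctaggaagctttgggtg
Ctsc: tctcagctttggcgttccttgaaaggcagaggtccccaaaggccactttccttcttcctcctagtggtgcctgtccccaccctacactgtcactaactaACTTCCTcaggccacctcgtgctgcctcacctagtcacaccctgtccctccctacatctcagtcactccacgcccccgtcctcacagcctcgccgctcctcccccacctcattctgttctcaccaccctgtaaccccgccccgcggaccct
Lyz2: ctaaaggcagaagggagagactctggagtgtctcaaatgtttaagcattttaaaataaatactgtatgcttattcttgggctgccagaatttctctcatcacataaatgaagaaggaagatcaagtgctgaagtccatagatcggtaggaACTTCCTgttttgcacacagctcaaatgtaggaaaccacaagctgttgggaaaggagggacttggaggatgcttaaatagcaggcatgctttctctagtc

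AGGAAGT, searched on both strands, was found in the promoter window of 6 of the 7 genes, once in each. The match began 84 bases before the start site in Elane, 94 in Prtn3, 206 in Ctsg and 223 in Mpo, all on the strand of the gene, and 151 in Ctsc and 100 in Lyz2 on the opposite strand. Neither of the 2 Srgn windows held it. Over all 32851 RefSeq promoter windows of this length, 7.69% held it. The RUNX core, TGTGGT, occurred in Ctsg, Lyz2 and 1 Srgn window, against 14.0% of all windows. TTNNGNAA, a loose form of the C/EBP site, occurred in Lyz2 and in the same Srgn window, against 36.8% of all windows. All were searched on both strands, and in no window of the 7 genes did matches of different motifs overlap. The motifs were chosen after the sequences had been seen, and a match describes letters only. Elane, Lyz2 and Ctsc hold the same 7 letters within 151 bases of the start site and had log2 fold changes of 0.05, 2.24 and 1.28 in SUV-OE over control.

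In SUV-OE, the 7 genes did not move together. None of the 7 was a DEG, where the share of DEGs over all tested genes was 1.22% (0.815% higher and 0.408% lower). For Lyz2 and Ctsc, the SUV-OE libraries were both higher than either control library, which held for 25.4% of tested genes. For Mpo, Prtn3, Ctsg and Srgn they were both lower than either control library, which held for 28.4%, and Elane overlapped between groups. The median log2 fold change of the 7 genes was -0.19 (-0.09 without SUV-OE replicate 2, -0.29 without SUV-OE replicate 3 and -0.077 with quantile normalization), and that of all tested genes was -0.02. At an unadjusted p under 0.05, 3 of the 7 passed (Ctsg, Ctsc and Lyz2), where 20.7% of tested genes did. A limma-voom fit on the recovered reads, added after the values were seen, called Lyz2 and Ctsc as DEGs, where it called 4.79% of the genes it tested (3.67% higher). Among the alternatives that use FPKM, quantile normalization called Lyz2 alone, where it called 0.786% of tested genes higher, and equal library totals without the 7 genes called Lyz2 alone, where they called 1.37% higher.

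**Figure D1:**
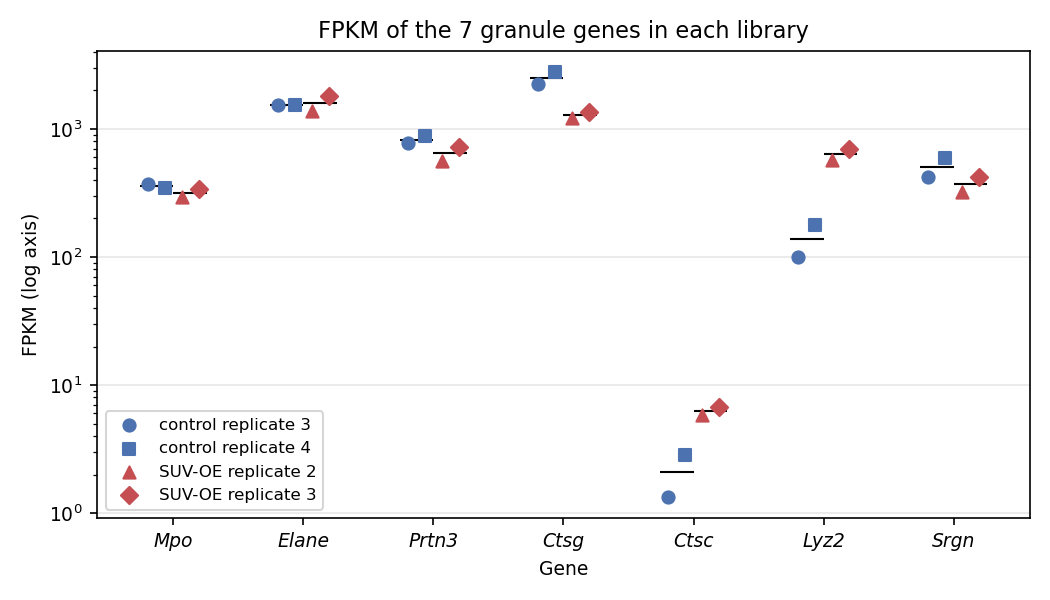
FPKM (log axis) of each of the 7 genes, with 1 symbol per library (control in blue, SUV-OE in red) and a black line at each group mean. Lyz2 and Ctsc lie higher in SUV-OE, Ctsg lies lower, and Elane overlaps between groups.

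Elane, Prtn3 and Ctsg encode the 3 classic proteases of the primary granule. Elane encodes neutrophil elastase, which degrades elastin and bacterial proteins. It stood at 1548 and 1527 FPKM in control replicates 3 and 4 and at 1385 and 1825 FPKM in SUV-OE replicates 2 and 3. The SUV-OE libraries lay on either side of the control libraries, and the control pair differed by a factor of 0.987 only. This gave a log2 fold change of 0.05 (SE 0.31, 95% confidence interval -0.76 to 0.85, adjusted p = 0.946), and it was -0.15 without SUV-OE replicate 3.

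Prtn3 encodes proteinase 3, an autoantigen of vasculitis with a substrate range close to that of elastase. It stood at 771 and 880 FPKM in control and at 565 and 728 FPKM in SUV-OE. Both SUV-OE libraries were lower, but the gap between the nearest libraries was smaller than the gap within either group. The log2 fold change was -0.36 (SE 0.25, 95% confidence interval -1.02 to 0.30, adjusted p = 0.474), and it was -0.18 without SUV-OE replicate 2 and -0.54 without SUV-OE replicate 3. Plppr3 on the opposite strand overlaps Prtn3, and the kit does not mark strand, so reads of the shared stretch cannot be assigned by strand. Plppr3 was far lower, at 29.3 to 43.3 FPKM, with a log2 fold change of 0.36 (adjusted p = 0.251).

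Ctsg encodes cathepsin G, a protease with chymotrypsin-like cleavage. It was the most abundant of the 7 genes in control, at 2236 and 2787 FPKM, and stood at 1226 and 1353 FPKM in SUV-OE. The groups were separated by more than the spread within each. The mean was 2512 ± 390 FPKM (SD, n = 2) in control and 1289 ± 89.4 FPKM (SD, n = 2) in SUV-OE, a control mean 1.95-fold higher. In the limma fit over all genes the log2 fold change was -0.95 (SE 0.32, 95% confidence interval -1.78 to -0.13), and its adjusted p = 0.198 did not pass. On recovered reads the log2 fold change was again -0.95 with an adjusted p = 0.0286 by limma-voom, short of the fold change threshold. Among all genes of the table, Ctsg ranked 5 and 11 by FPKM in the control libraries and 33 and 36 in the SUV-OE libraries.

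Set against one another within a library, which removes any difference in scaling between libraries, the 3 proteases kept different proportions in the 2 groups. The ratio of Elane to Ctsg was 0.692 and 0.548 in control against 1.13 and 1.35 in SUV-OE. Ctsg was thus the higher gene in both control libraries and Elane the higher in both SUV-OE libraries, with a log2 difference in the ratio of 1.003 and a pooled SD of 0.21. The ratio of Prtn3 to Ctsg went from 0.345 and 0.316 to 0.461 and 0.538, and the ratio of Elane to Prtn3 from 2.01 and 1.74 to 2.45 and 2.51. None of these ratios overlapped between groups, but with 2 libraries against 2 a two-sided exact permutation test cannot give less than 0.333, and no p-value is given for them. The order of Elane and Ctsg rests on the exon lengths in the deposited FPKM, which fit 920 bases for Elane and 1002 for Ctsg, while the change of the ratio between groups does not.

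Ctsc encodes dipeptidyl peptidase I (cathepsin C), which trims the proteases to their active form. Its transcript was the scarcest of the 7 in all 4 libraries and was higher in SUV-OE. It stood at 1.35 and 2.86 FPKM in control, from 152 and 280 reads, and at 5.86 and 6.73 FPKM in SUV-OE, from 604 and 695 reads. The SUV-OE pair lay close together and above the control pair, whose libraries differed 2.12-fold. Counting error alone gave exact 95% Poisson intervals of 1.14 to 1.58, 2.53 to 3.21, 5.40 to 6.35 and 6.24 to 7.25 FPKM, so the control libraries differed beyond counting error. The mean was 2.996-fold higher in SUV-OE (2.10 ± 1.07 against 6.30 ± 0.615 FPKM, SD, n = 2 each). The log2 fold change was 1.28 on the log2(FPKM + 1) scale, which understates the change of a gene this low (SE 0.27, 95% confidence interval 0.58 to 1.97, adjusted p = 0.104). On recovered reads it was 1.71 with an adjusted p = 0.0270 by limma-voom. Ctsc and Ctsg thus lay on opposite sides, with the ratio of Ctsg to Ctsc at 1662 and 976 in control and at 209 and 201 in SUV-OE.

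Mpo encodes myeloperoxidase, the heme enzyme that makes hypochlorous acid. It stood at 369 and 349 FPKM in control and at 292 and 337 FPKM in SUV-OE. The SUV-OE libraries were both lower, by less than their own spread in the case of the nearest pair, and the groups overlapped once library totals without the 7 genes were made equal. Mpo had a log2 fold change of -0.19 (SE 0.18, 95% confidence interval -0.67 to 0.28, adjusted p = 0.590), and this was -0.09 without SUV-OE replicate 2 and -0.29 without SUV-OE replicate 3.

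Lyz2 encodes lysozyme, which cuts bacterial cell walls, and is also a gene of monocytes, macrophages and later neutrophil stages. It had the largest fold change of the 7 genes. It stood at 101 and 177 FPKM in control and at 570 and 703 FPKM in SUV-OE. Both SUV-OE libraries lay far above both control libraries, although the control libraries themselves differed 1.75-fold. The mean was 4.59-fold higher in SUV-OE (139 ± 53.6 against 637 ± 94.4 FPKM, SD, n = 2 each). The log2 fold change was 2.24 (SE 0.32, 95% confidence interval 1.41 to 3.07), with an adjusted p = 0.0596 that fell just short of the threshold. It passed with quantile normalization (2.38, adjusted p = 0.0376), with equal library totals (2.34, adjusted p = 0.0201) and with limma-voom (2.25, adjusted p = 0.00797). Lyz1, the neighboring copy 5476 bases away, held 3 and 4 reads in control against 12 and 5 in SUV-OE, so few reads were placed on the copy. In rank by FPKM among all genes, Lyz2 stood at 527 and 291 in control and at 79 and 76 in SUV-OE.

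Srgn encodes serglycin, the core protein to which granule proteases bind. It stood at 419 and 598 FPKM in control and at 320 and 418 FPKM in SUV-OE. Control replicate 3 and SUV-OE replicate 3 were level, with exact Poisson intervals of 413 to 425 and 412 to 424 FPKM, so the groups touched within counting error. For Srgn the log2 fold change was -0.45 (SE 0.27, 95% confidence interval -1.16 to 0.26, adjusted p = 0.412), and it was -0.71 without control replicate 3 and -0.20 without control replicate 4. The ratio of Lyz2 to Srgn was 0.2403 and 0.295 in control against 1.78 and 1.68 in SUV-OE, so lysozyme was the scarcer transcript of the pair in control and the more abundant in SUV-OE.

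**Figure D2:**
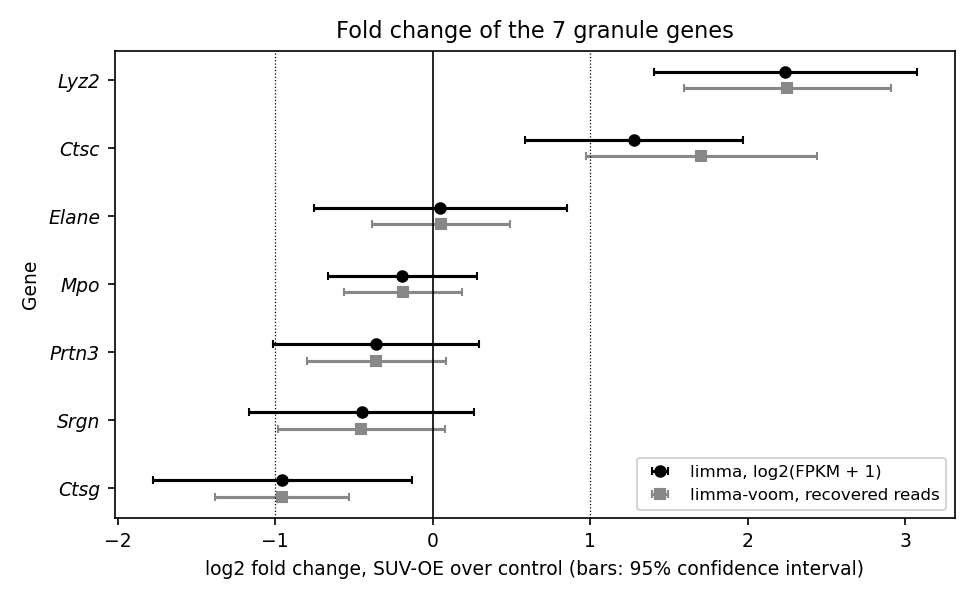
Log2 fold change of SUV-OE over control for the 7 genes, with 95% confidence intervals as bars, from limma on log2(FPKM + 1) (black circles) and from limma-voom on recovered reads (grey squares), and dotted lines at the threshold of 1 in each direction. Lyz2 (2.24 and 2.25), Ctsc (1.28 and 1.71) and Ctsg (-0.95 and -0.95) have intervals that exclude 0, and the intervals of Elane, Mpo, Prtn3 and Srgn include it.

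By level per exon length, both control libraries gave the same order, Ctsg, Elane, Prtn3, Srgn, Mpo, Lyz2 and Ctsc from high to low. In SUV-OE, Elane led, Ctsg came next, and Lyz2 moved up from the next to last place to stand beside Prtn3. Prtn3 and Lyz2 did not differ beyond their spread in SUV-OE, with Prtn3 to Lyz2 ratios of 0.991 and 1.04. The 7 genes together made up 1.53% and 1.52% of summed FPKM in control and 1.28% and 1.44% in SUV-OE. Their sum was 5445 and 6320 FPKM in control and 4364 and 5371 FPKM in SUV-OE. Both SUV-OE sums were lower than either control sum, and the nearest libraries, at 5371 and 5445 FPKM, lay close to each other.

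Genes that act on the granule proteases or lie beside them in the granule were taken as 2 lists. Of 11 genes for protease maturation and inhibition, none was a DEG in either direction (1.22% over all tested genes), 1 lay above and 2 below without overlap (25.4% and 28.4% over all tested genes), and the median log2 fold change was -0.08, which became 0.07 with quantile normalization, 0.03 with equal library totals, 0.03 without control replicate 4 and -0.21 without control replicate 3. Ctsl, a lysosomal cysteine protease, stood at 10.6 and 9.92 FPKM in control against 6.29 and 8.56 in SUV-OE (log2 fold change -0.43, adjusted p = 0.245). Ctss, its relative in antigen-presenting cells, was 7.12 and 9.64 against 10.9 and 10.4 FPKM (0.32, adjusted p = 0.347), and Serpinb6a, an inhibitor of cathepsin G, was 2.65 and 2.73 against 2.43 and 2.14 FPKM (-0.17, adjusted p = 0.526). Among the members of this list whose libraries overlapped were Serpinb1a, an inhibitor of all 3 proteases, at 285 and 376 against 269 and 314 FPKM, and Cst7, an inhibitor of cathepsin C, at 43.5 and 49.5 against 42.9 and 45.1 FPKM. Cst7 and Serpinb1a were named after their values were seen.

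Of 20 other primary granule and lysosomal genes, none was a DEG, 12 lay below and 3 above without overlap, where 28.4% and 25.4% of all tested genes did. The list median was -0.16 (-0.03 with quantile normalization and -0.05 with equal library totals), with the same sign under every alternative run. Plbd1, a granule protein of the phospholipase B family, stood at 1.31 and 2.57 FPKM in control and at 8.92 and 9.40 FPKM in SUV-OE. The difference of 1.82 on the log2 scale just missed the threshold (adjusted p = 0.0504) and was a DEG with limma-voom (2.34, adjusted p = 0.00873). Gusb, the lysosomal beta-glucuronidase also held in primary granules, was 92.3 and 86.5 against 57.5 and 54.5 FPKM (-0.67, adjusted p = 0.0872, and 0.0338 with limma-voom at a fold change under the threshold). Cd63, a membrane protein of primary granules, was 650 and 867 against 510 and 543 FPKM (-0.51, adjusted p = 0.320). Prss57, a serine protease of the same granule, was 24.3 and 21.6 against 15.0 and 17.4 FPKM (-0.48, adjusted p = 0.157). Prss57, Gusb and Cd63 thus lay on the side of Ctsg, and Plbd1 on the side of Ctsc and Lyz2.

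Of 11 transcription factor genes known to act on granule genes, 10 were tested, 1 rose and none fell, where 0.815% of all tested genes rose and 0.408% fell. Irf8, a factor that favors the monocyte over the neutrophil fate, rose from 5.22 and 5.01 FPKM to 11.6 and 11.0 FPKM (log2 fold change 1.01, SE 0.11, adjusted p = 0.0405). The other 9 tested did not pass, and the median was -0.16 (0.01 with quantile normalization, -0.35 without control replicate 4 and -0.02 without control replicate 3). Runx1 was 8.60 and 7.22 against 15.2 and 13.2 FPKM (0.77, adjusted p = 0.0872), Cebpb was 59.5 and 31.0 against 23.1 and 26.3 FPKM (-0.78, adjusted p = 0.263), and Cebpe, required for secondary granules, was 237 and 242 against 177 and 193 FPKM (-0.37, adjusted p = 0.262). Spi1, which encodes PU.1, stood at 152 and 113 FPKM in control and 112 in both SUV-OE libraries (-0.23, adjusted p = 0.540).

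Of 10 promyelocyte and progenitor genes, 1 rose and none fell (0.815% and 0.408% over all tested genes), with a median of 0.08 that was -0.07 without control replicate 3, 0.25 without control replicate 4, 0.12 without SUV-OE replicate 3 and 0.03 without SUV-OE replicate 2. Fcnb, which encodes ficolin B, a lectin of neutrophil precursors, rose from 5.80 and 10.1 FPKM to 52.1 and 57.9 FPKM (log2 fold change 2.68, SE 0.26, adjusted p = 0.0309). Csf3r, the G-CSF receptor gene, was 29.2 and 30.001 against 48.0 and 57.4 FPKM (0.80, adjusted p = 0.0784). Flt3, a receptor of early progenitors, was 10.3 and 9.08 against 6.20 and 4.18 FPKM (-0.81, adjusted p = 0.133), and Ms4a3, a marker of granulocyte and monocyte progenitors, was 55.0 and 76.4 against 43.0 and 50.4 FPKM (-0.47, adjusted p = 0.279).

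The genes that follow the primary granule genes in normal maturation are given beside the 7. Of 15 secondary granule and late neutrophil genes, 3 rose and 1 fell, 13 lay above and 1 below without overlap, and the median log2 fold change was 1.49. Over all tested genes, 0.815% rose, 0.408% fell and 25.4% lay above. With limma-voom on recovered reads, 9 of the list were called higher and 1 lower, where 3.67% of all genes were called higher. Ltf, which encodes lactoferrin of secondary granules, rose from 19.9 and 40.3 FPKM to 212 and 241 FPKM (2.95, adjusted p = 0.0434). Cd177, a neutrophil surface protein that binds proteinase 3, rose from 21.1 and 21.95 to 63.3 and 61.5 FPKM (1.49, adjusted p = 0.0220), and Itgb2l, an integrin gene, rose from 3.01 and 4.10 to 14.2 and 13.03 FPKM (1.69, adjusted p = 0.0304). Olfm4, a marker of a subset of neutrophils, fell from 38.6 and 47.0 to 17.5 and 16.9 FPKM (-1.26, adjusted p = 0.0405). S100a8 (178 and 791 against 2134 and 2684 FPKM, adjusted p = 0.157), S100a9 (275 and 979 against 2589 and 3262 FPKM, adjusted p = 0.148) and Ngp (166 and 302 against 1010 and 1087 FPKM, adjusted p = 0.0653) did not pass, although S100a9 (adjusted p = 0.0474) and Ngp (adjusted p = 0.00931) did with limma-voom.

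**Figure D3:**
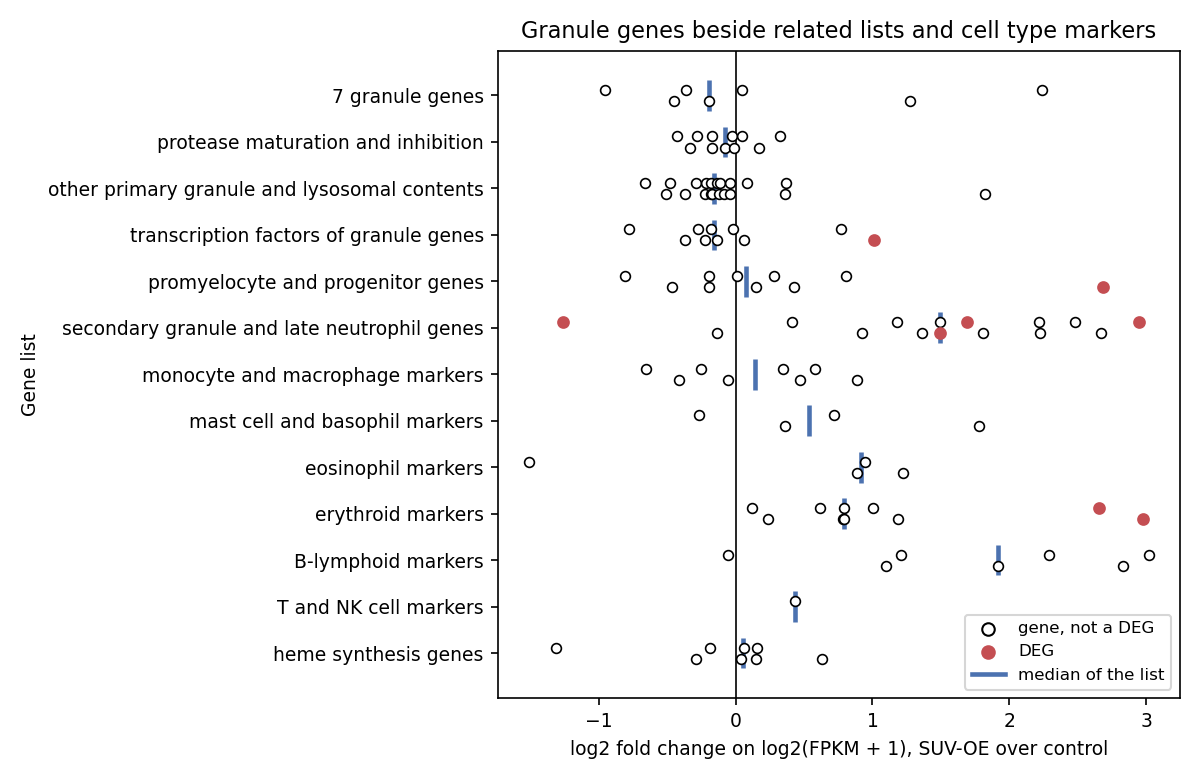
Log2 fold change of SUV-OE over control for every tested gene of the 7 granule genes and of 12 related lists and marker lists, 1 circle per gene (red where it was a DEG) with a blue bar at the list median. The secondary granule and late neutrophil list has its median at 1.49, and the 7 granule genes spread from -0.95 to 2.24.

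Lyz2 and Ctsc lay on the side of this late list, and several values moved with them whose part in the result was not tested. The summed level of the late list was 1088 and 2791 FPKM in control and 7091 and 8595 FPKM in SUV-OE, and the list median of control replicate 4 over control replicate 3 was 0.86 on the log2 scale, beside 0.80 for Lyz2 and 0.72 for Ctsc. In bulk RNA of an enriched population, a change in the number of cells of a type and a change in RNA per cell cannot be told apart.

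Markers of other cells that an enriched marrow could hold were read in the same fit. For monocytes and macrophages, 8 of 11 genes were tested, none was a DEG, 4 lay above and 1 below (25.4% and 28.4% over all tested genes), the median was 0.14 (0.27 without SUV-OE replicate 3 and 0.23 with equal library totals), and the summed level was 393 and 665 FPKM in control and 374 and 413 FPKM in SUV-OE. Ly6c2, the most abundant of that list, was 281 and 545 against 229 and 269 FPKM (log2 fold change -0.65, adjusted p = 0.370), while Ccr2 was 4.81 and 6.11 against 11.8 and 10.004 FPKM (0.89, adjusted p = 0.0855), Csf1r 5.06 and 5.57 against 9.39 and 7.55 FPKM (0.58, adjusted p = 0.141) and Adgre1 38.0 and 55.4 against 62.8 and 65.4 FPKM (0.47, adjusted p = 0.284). Ly6c2 made up most of the summed level. With limma-voom, 1 gene of the list (Ccr2) was called higher, as were 3.67% of all genes.

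Mast cells and basophils share granule proteases of the same family. Of 9 markers, 7 were in the table, 4 were tested and none was a DEG, with a median of 0.54, sums of 49.7 and 75.0 FPKM in control and 151 and 134 FPKM in SUV-OE, and 3 markers at 0 in a control library. Cpa3, a mast cell carboxypeptidase, was 21.3 and 43.5 against 112 and 103 FPKM (1.78, adjusted p = 0.0951, and 0.0189 with limma-voom, which called it alone and put the list median at 0.87), Gata2 was 11.95 and 9.68 against 20.02 and 16.8 FPKM (0.72, adjusted p = 0.113), and Ms4a2 was 0.366 and 0.485 against 0.881 and 0.780 FPKM (0.36, adjusted p = 0.308). Mcpt8, the remaining tested marker of this list, overlapped between groups at 16.1 and 21.1 against 17.1 and 13.4 FPKM (-0.27, adjusted p = 0.481). Of 6 eosinophil markers, 4 were tested and none was a DEG, with a median of 0.92 (0.47 without control replicate 3 and 0.60 without SUV-OE replicate 2) and sums of 60.2 and 121 against 150 and 99.2 FPKM. Prg3 was 17.1 and 40.5 against 10.9 and 6.82 FPKM (-1.51, adjusted p = 0.171), and Siglecf was 27.4 and 31.5 against 58.2 and 52.6 FPKM (0.89, adjusted p = 0.0648).

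All 10 erythroid markers were tested, 2 rose (4 with limma-voom) and none fell, where 0.815% of all tested genes rose (3.67% with limma-voom), with a median of 0.79 (1.28 with limma-voom, 1.71 without control replicate 4 and 0.38 without control replicate 3) and sums of 21.5 and 143 FPKM in control and 147 and 119 FPKM in SUV-OE. Car1 rose from 4.57 and 2.28 to 33.4 and 32.0 FPKM (2.98, adjusted p = 0.0280) and Car2 from 2.33 and 1.47 to 15.9 and 18.4 FPKM (2.66, adjusted p = 0.0214), both carbonic anhydrases. The globin genes, which made up most of the sum, overlapped between groups, with Hbb-bs at 5.24 and 63.2 FPKM in control against 38.9 and 28.7 in SUV-OE and Hba-a1 at 5.06 and 47.7 against 35.8 and 23.1 FPKM (both named after their values were seen). Control replicate 4 was the highest library for all 4 globin genes of the list. Klf1, a factor that defines the lineage, was at most 3.42 FPKM in any library (adjusted p = 0.0840). All 7 B-lymphoid markers were tested and none was a DEG, while 3 were called higher with limma-voom (3.67% over all genes). Of the 7, 6 lay above (25.4% over all genes), the median was 1.92 (3.36 with a pseudocount of 0.1 and 4.88 with limma-voom), and the sums were 18.5 and 27.5 against 35.8 and 79.4 FPKM. Vpreb1 was 0.277 and 0.745 against 6.23 and 19.3 FPKM (adjusted p = 0.0795), Igll1 was 0.166 and 0.411 against 4.11 and 15.3 FPKM (adjusted p = 0.0979), and Cd79a was 0.635 and 1.10 against 5.49 and 11.7 FPKM (adjusted p = 0.0669). Of 7 T and NK cell markers, only Cd4 passed the minimum for testing (adjusted p = 0.314), 5 were at 0 in a control library, and the sum did not exceed 2.10 FPKM. The part of any of these cells in the results on Lyz2, Ctsc or Ctsg was not tested.

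Myeloperoxidase needs heme, so the 8 heme synthesis genes were read beside Mpo. None was a DEG, 3 lay above and 2 below (25.4% and 28.4% over all tested genes), and the median was 0.05, which lay between -0.02 and 0.11 when 1 library was left out, was under 0 with quantile normalization and was 0.14 with equal library totals. Fech, which encodes ferrochelatase, the last enzyme of the pathway, stood at 62.4 and 47.4 FPKM in control and 23.2 and 19.5 FPKM in SUV-OE, a log2 fold change of -1.31 that did not pass (adjusted p = 0.0576) but did with limma-voom (-1.35, adjusted p = 0.0102). Cpox was 10.8 and 7.92 against 14.7 and 15.0 FPKM (0.63, adjusted p = 0.148), and Alas1, the entry enzyme, was 125 and 112 against 127 and 137 FPKM (0.16, adjusted p = 0.583).

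The neighborhoods of the 7 genes were examined within 200 kb, since several members sit among relatives. No neighbor of any of the 7 was a DEG, where 1.22% of all tested genes were. Around Elane, 25 neighbors were tested, with log2 fold changes from -0.85 to 0.46 and a median of -0.23. Besides Prtn3 these include 3 other serine protease genes. Prss57 of the primary granule, 95286 bases from Elane, lay below without overlap (-0.48, adjusted p = 0.157). Cfd, which encodes complement factor D, was at 0.613 and 1.61 FPKM in control against 0.733 and 1.04 in SUV-OE (-0.13, adjusted p = 0.829), and Gzmm, a granzyme of lymphocytes, was at 1.05 and 0.564 against 0.804 and 0.420 FPKM (-0.16, adjusted p = 0.726). Cfd lies 2638 bases from Elane, and it was far lower than Elane in every library.

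Around Mpo, 11 neighbors were tested, with log2 fold changes from -0.17 to 1.23. Lpo, the lactoperoxidase gene 2015 bases from Mpo, was at 0.197 and 0.208 FPKM in control against 0.449 and 0.431 in SUV-OE and was too low to test. Epx, the eosinophil peroxidase gene, was at 0.263 and 0.866 against 3.95 and 1.60 FPKM (1.23, adjusted p = 0.181). An antisense transcript, Gm11505, overlaps Mpo and was at most 0.534 FPKM. Around Ctsg lies the cluster of granzyme and mast cell protease genes. Of 28 annotated neighbors, 8 had a row in the table and 3 were tested. Mcpt8, a basophil protease gene 14608 bases away, was at 16.1 and 21.1 FPKM in control against 17.1 and 13.4 in SUV-OE (-0.27, adjusted p = 0.481), and Gzmb, Gzmd, Cma1 and Cma2 were at most 0.367 FPKM. The nearest tested neighbor of Ctsc was Rab38, 119385 bases away, a GTPase gene of lysosome-related organelles that was named after its values were seen. It was at 0.1304 and 0.188 FPKM in control and 1.501 and 2.10 FPKM in SUV-OE (1.27, adjusted p = 0.0636). Around Lyz2 the 3 tested neighbors lay between -0.41 and 0.06, and around Srgn the 7 tested neighbors lay between -0.32 and 0.16.

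**Figure D4:**
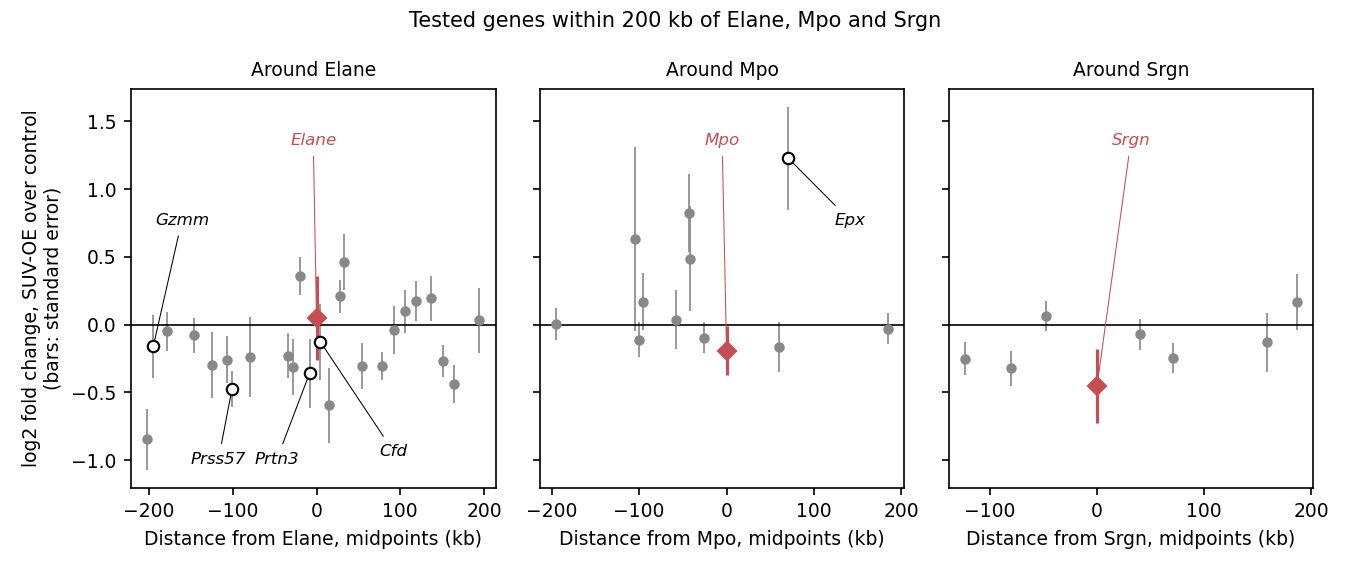
Log2 fold change of SUV-OE over control (bars, standard error) of tested genes within 200 kb of Elane, Mpo and Srgn against the distance between gene midpoints in kb, with the named gene in red and related genes as open circles. None of the neighbors was a DEG (1.22% over all tested genes), and Epx near Mpo has the highest value at 1.23.

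Genes whose profile over the 4 libraries was most like that of each member were taken by Euclidean distance of centered log2(FPKM + 1), among 5483 tested genes with a mean of at least 10 FPKM. All profiles come from the same 4 libraries in 2 groups, so likeness is a description only. For Lyz2 the nearest were Igkc, an immunoglobulin light chain gene (distance 0.04), Ngp of secondary granules (0.15) and 1700080G11Rik (0.22). Igkc was 14.5 and 25.8 FPKM in control and 83.2 and 103 FPKM in SUV-OE. For Ctsc they were Selenop (0.20), Tpm4 (0.22) and Akr1c13 (0.23), with Tpm4 at 4.62 and 9.20 FPKM in control and 19.1 and 20.6 FPKM in SUV-OE. For Ctsg they were Snapc1 (0.12), Oxnad1 (0.14) and Mrps28 (0.15), with Snapc1 at 17.9 and 23.0 against 8.59 and 9.71 FPKM. The members near level had close matches. They were Cct7, Hdc and Sec61a1 for Mpo (0.02 to 0.04), Eif4a2, Orai1 and Psme2b for Elane (0.04 to 0.10), Epb41l4aos, Rpl18-ps2 and Vti1b for Prtn3 (0.05 each) and Mrpl30, Gemin6 and Pigyl for Srgn (0.05 each). The search left out the 7 genes themselves.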

How the data were processed

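RNA-seq of AML c-Kit+ cells was analysed in 2 control and 2 SUV-OE libraries. The authors prepared TruSeq v2 libraries, and the submitters' processing notes name CASAVA 1.8, TopHat2 and mm10. The paper's methods name Cufflinks for expression, but whole reads could be recovered from the values, so the counting tool is uncertain. The deposited table gives FPKM for each gene in each library. They called DEGs with DESeq2, which needs counts and was not used here. The annotation release is not given in the sources used here.

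The log2(FPKM + 1) values were fitted in limma 3.58.1 (R 4.3.3), with group as the only term, an intensity trend, and Benjamini-Hochberg adjustment over the 13736 genes whose mean reached 0.5 FPKM. DEGs needed an adjusted p-value below 0.05 together with a log2 fold change of 1 or more in either direction. Fold changes understate low genes because of the pseudocount of 1. The test was tested on simulated data.

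Symbols and positions came from GENCODE M21 (23438 of 23552 identifiers matched). For 78.5% of genes, each value, taken at the GENCODE exon length, came out as whole reads (tolerance 0.01). The recovered reads were rounded where not whole and summed to 20082965 to 23557717 per library, which is not the library depth. They served for limma-voom, added after the data were seen (14292 genes averaging 10 reads or more). They also gave the 95% Poisson intervals, which cover counting error only. For Elane, Ctsg and Lyz2 another exon length was needed. Promoters came from RefSeq (GRCm38.p6), in which all 7 genes were matched.

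The 7 genes and the lists were chosen with earlier results of these data known. Named genes are the 7, Suv39h1 and Kit, in each list every DEG and up to 4 tested genes with the largest change among those whose groups do not overlap, family members within 200 kb, and the 3 nearest profiles per gene. Other genes were picked with their values in view. Some genes under the rule are not reported here. Alternatives were a pseudocount of 0.1, no filter, a mean of at least 1 FPKM, quantile normalization, median-of-ratios scaling, equal totals without the 7 genes, no trend, a robust trend, any fold change, and leaving out each library.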

Additional observations from a re-analysis of the deposited data

How the results depend on the processing

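Of the 7 genes, Mpo, Prtn3 and Srgn kept their direction and were not called under any alternative run. Ctsg kept its direction and passed only with limma-voom at any fold change. Elane reversed to -0.15 without SUV-OE replicate 3. Ctsc passed with limma-voom only (1.71). Lyz2 passed with quantile normalization (2.38), equal totals (2.34) and limma-voom (2.25). The count of DEGs among the 7 was 0 and became 1 with quantile normalization, 1 with equal totals, 2 with limma-voom and 3 with limma-voom at any fold change. The median of the 7 was -0.19 and moved to -0.077 with quantile normalization.

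When 1 library was left out, log2 fold changes ranged from -0.29 to -0.09 (Mpo), -0.15 to 0.25 (Elane), -0.54 to -0.18 (Prtn3), -1.11 to -0.80 (Ctsg), 0.92 to 1.63 (Ctsc), 1.84 to 2.64 (Lyz2) and -0.71 to -0.20 (Srgn), and the median from -0.29 to -0.09. Over all genes, the 168 DEGs became 0 with any library left out (1 group then held a single library, and Suv39h1 did not pass either), 0 without the filter, 116 with a pseudocount of 0.1, 235 with equal totals and 684 (525 higher, 159 lower) with limma-voom. Of 155 alternative list medians, 132 moved by less than the spread between replicates and 7 changed sign. No paired analysis was possible because just 1 replicate number, 3, occurs in both groups. The T and NK cell list had no tested gene at a mean of at least 1 FPKM and gave no median there. Counting error was widest for Ctsc, which had 152 to 695 reads per library.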
